A study of Mus musculus with 6 samples.

Results

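The cytosolic ribosomal protein genes were taken by name from a deposited table of 21958 protein-coding mouse genes. A gene was included when its symbol began with Rpl or Rps followed by a digit, or was Rplp0, Rplp1, Rplp2 or Rpsa, and the S6 kinase genes and names with -ps were left out. The rule found 87 genes, of which 52 carried large subunit names and 35 small subunit names. It used no measured value. Of the 87 genes, 77 carried the name of a ribosomal subunit protein and 10 were paralogs, a retrogene copy or other names (Rpl3l, Rpl7l1, Rpl10l, Rpl22l1, Rpl36al, Rpl39l, Rps4l, Rps27l, Rps27rt and Rps19bp1, which is named as a binding protein of a ribosomal protein).

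RNA was sequenced from synaptoneurosomes, a filtered brain homogenate enriched in pinched-off pre- and postsynaptic parts, of FVB mice aged 6 to 8 weeks (hippocampus and the neighbouring cortex). In 3 libraries, named NMDA polyribosomes, synaptoneurosomes received a 30 sec pulse of NMDA (50 µM) and glutamate (10 µM), then the NMDA receptor blocker APV (120 µM), stood for 20 min, and RNA of the pooled light and heavy polyribosomal fractions was taken. The other 3 libraries held total RNA of unstimulated synaptoneurosomes. By the paper's methods, unstimulated controls stayed on ice with the protein synthesis inhibitor cycloheximide, while stimulated samples were incubated warm. Tissue of several mice was combined before each preparation was divided into aliquots, so a library stands for a pool of animals and each replicate number for 1 preparation. Stimulation, this handling and the RNA fraction changed together, and their parts in a difference cannot be told apart. The libraries held 5294482 to 7361580 counts on polyribosomes and 1044955 to 3738022 counts in total RNA, and total RNA replicate 3 was the shallowest.

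A ribosome is built of a small subunit, which reads the mRNA, and a large subunit, which joins the amino acids. Each ribosomal protein is present in most ribosomes as a single copy, with the stalk proteins Rplp1 and Rplp2 as the known exception, and the mRNAs of both subunits are generally made and translated together. Most of these mRNAs begin with a C followed by a run of pyrimidines, the 5′ terminal oligopyrimidine (TOP) start, through which the mTOR pathway controls their translation. Ribosomal protein mRNAs are also well known among the mRNAs found in axons and dendrites, away from the cell body. Many of the genes carry small nucleolar RNA (snoRNA) genes in their introns, which guide the chemical modification of ribosomal RNA.

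Start-site windows of 30 bases, 10 before the transcription start and 20 from it on, were read on the strand of the gene from the RefSeq promoter table (GRCm38.p6), which held 66 of the 87 genes. A C followed by 4 bases that were each C or T stood exactly at the start in 13 of these 66 genes (19.7%), against 2.19% of 15919 windows over the whole table. An unbroken run of at least 8 C or T bases lay anywhere in the window in 21 of the 66 (31.8%), against 11.1% over the whole table. The TOP start was found at 6 of 40 large subunit genes (15.0%) and 7 of 26 small subunit genes (26.9%), and at none of 68 mitochondrial ribosomal protein genes. A start annotated a few bases away moves a match, so these shares describe this annotation only. The windows of members on which the comparison of libraries turned are shown, with the longest run of C and T in capitals. The first 3 belong to genes with more RNA on polyribosomes in the paired fit described further on, and the other 5 to genes with less.
Rpl18 (chr7:45718061-45718090, + strand): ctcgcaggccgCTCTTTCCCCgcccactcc
Rpl27 (chr11:101442235-101442264, + strand): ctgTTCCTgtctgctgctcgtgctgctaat
Rplp2 (chr7:141447641-141447670, + strand): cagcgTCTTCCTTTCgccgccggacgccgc
Rps12 (chr10:23787190-23787219, - strand): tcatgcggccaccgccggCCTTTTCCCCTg
Rpl41 (chr10:128549149-128549178, - strand): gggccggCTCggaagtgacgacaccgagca
Rps2 (chr17:24720053-24720082, + strand): gtcgagatctcgcgCTTCTTggagcactat
Rpl5 (chr5:107900518-107900547, + strand): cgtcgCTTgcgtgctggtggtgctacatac
Rpsa (chr9:120127756-120127785, + strand): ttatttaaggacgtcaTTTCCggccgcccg
Long and short runs stood on both sides. Rpl18 and Rplp2 had runs of 10 bases and Rps12 had one of 11, whereas the longest runs of Rpl41 and Rpl5 were of 3 bases. The annotated start used for Rps2 lay 1947 bases inside the 5′ end of the gene in the deposited coordinates, and that of Rpl18 lay 2614 bases inside, so other starts of these genes were not shown.

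The ribosomal protein mRNAs were abundant in both kinds of library. Levels are given as CPM (counts per 1e6 counts), the deposited counts scaled to library size with edgeR's TMM factors. Among 81 members that passed edgeR's expression filter, the mean level ran from 5.83 to 325 CPM on polyribosomes, with a median of 77.2, and from 5.44 to 339 CPM in total RNA, with a median of 83.3. Per library, Rpl4, which lines the exit tunnel of the large subunit, held the highest level among them on polyribosomes, with 316, 314 and 345 CPM, against 326, 341 and 351 CPM in total RNA. Rplp1 had the second highest level in total RNA (336 ± 56.3 CPM, SD, n = 3) and Rpsa the next (286 ± 37.5 CPM, SD, n = 3), whose protein is also known as a laminin receptor. The SDs of Rpl4 and Rplp1 overlapped, so their order is not resolved. Per kilobase of transcript, Rplp1 stood first in total RNA with 673 CPM per kb, followed by Rps15 with 379 and Rpl38 with 296. On polyribosomes Rplp1 held 427 CPM per kb, Rpl38 333 and Rps15 319.

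A handful of members were hardly counted, and 6 of the 87 did not pass the filter. Rpl10l, a testis paralog of Rpl10, and the retrogene Rps27rt had no count in any library, which allows a level of up to 0.408 CPM in the deepest library and 2.87 in the shallowest (3 counts, counting error only). The testis paralog Rpl39l had 1 count in all and Rpl3l, the striated muscle paralog of Rpl3, had 3. Rps4l ranged from 0.497 to 3.50 CPM. Rpl24, a core member, had counts of 0, 0 and 0 on polyribosomes and 0, 1 and 1 in total RNA, and a processed transcript of the same strand overlaps it in Gencode vM21. Of the members, 61 have named pseudogenes in that annotation, up to 24 for a gene (Rps12 and Rpl31), and 14 of the tested members overlap another gene of the table. Reads of such genes could be split or shared by the counting, so levels between members are uncertain, while a copy adds to a comparison of libraries only as far as it is itself transcribed.

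Together the 87 genes took 0.659, 0.657 and 0.741% of the protein-coding counts in polyribosome replicates 1 to 3, and 0.857, 0.765 and 0.767% in total RNA replicates 1 to 3. The mean share was 0.686 ± 0.048% on polyribosomes and 0.797 ± 0.053% in total RNA (SD, n = 3), with no overlap between the libraries of the groups. The large subunit genes held 0.424 ± 0.031% on polyribosomes and 0.480 ± 0.027% in total RNA. There the groups nearly touched, since polyribosome replicate 3 held 0.460% and total RNA replicate 2 held 0.461%. For the small subunit genes the shares were 0.262 ± 0.017% and 0.317 ± 0.026%, with no overlap. Summed on the TMM scale, the groups overlapped. The 87 genes held 6562 to 8077 CPM on polyribosomes and 7454 to 7956 CPM in total RNA. The small subunit genes held 2533 to 3063 CPM against 2965 to 3213 CPM. The lack of overlap thus held for shares of the counts and not for TMM-scaled levels. The counting interval was widest in the shallowest library, where the small subunit share of 0.300% had a Wilson 95% interval of 0.289 to 0.310%. In polyribosome replicates 1 to 3 the count ratio of large to small subunit genes was 1.59, 1.63 and 1.64, and in total RNA replicates 1 to 3 it was 1.48, 1.51 and 1.56. Within each preparation the ratio was higher on polyribosomes, by 0.11, 0.12 and 0.08. The mean of these differences was 0.10 ± 0.02 (SD, n = 3). No test was run on the shares and ratios. An exact two-sided permutation test cannot give a p below 0.1 for 3 against 3 libraries, or below 0.25 for sign changes within 3 preparations.

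Fold changes were fitted over 12255 genes with edgeR's quasi-likelihood test, and a positive log2 fold change stands for more RNA on NMDA polyribosomes than in unstimulated total RNA. With the group as the only term, none of the 81 members passed an adjusted p of 0.01, where 0.710% of all genes tested were higher and 2.36% lower. Before adjustment, 7 members were higher and 15 lower at p under 0.05, where 15.4% of all genes were higher and 17.1% lower. With adjusted p-values under 0.05, 1 member was higher (Rpl18) and 7 were lower, beside 6.52% and 8.85% of all genes. DESeq2 called 3 members lower at 0.01 (Rps12, Rps2 and Rplp1), where it called 3.31% of all genes higher and 3.83% lower. With the replicate as a block DESeq2 called 2 members higher and 6 lower, beside 6.91% and 5.97% of all genes. Keeping every gene of at least 1 count in the edgeR fit gave 0 members higher and 2 lower, beside 2.84% and 3.38% of all genes. Libraries of the same replicate number came from the same preparation, and a fit with the replicate as a block called 16 members. It called 4 members higher, all of the large subunit, where 11.8% of all genes were called higher, and it called 12 members lower, 6 of each subunit, where 13.2% of all genes were called lower. Thus 4.94% of the members were called higher and 14.8% lower, so the share of members lower was near that of all genes, and the share higher was below it. The groups did not overlap in 6 members that were higher and 20 that were lower, against 17.4% and 18.9% of all genes, and 14 of the 16 members called with the block were among them.

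**Figure D1:**
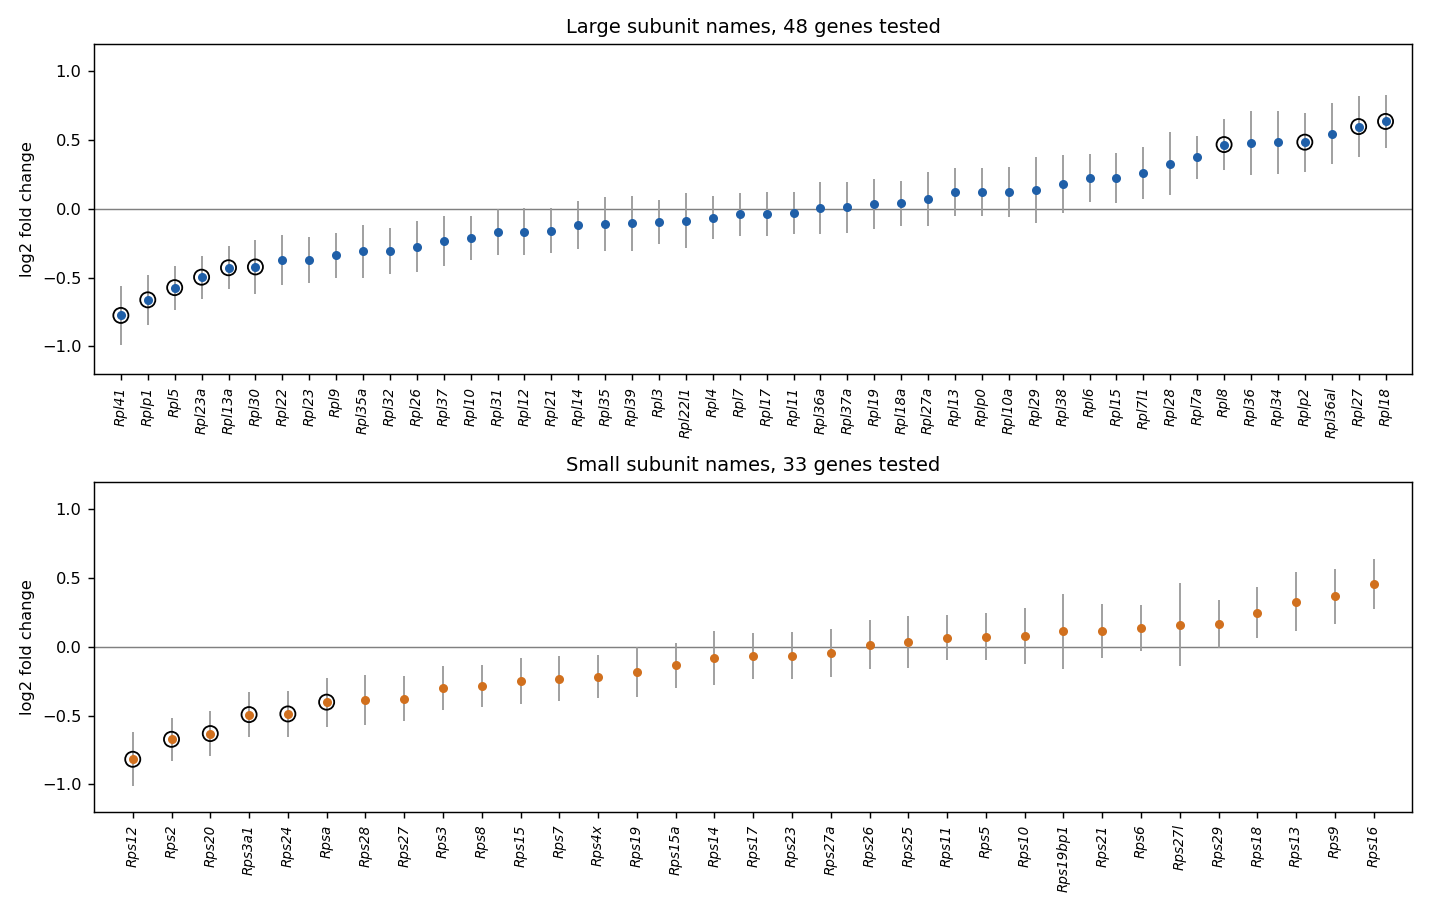
Log2 fold change (NMDA polyribosomes against unstimulated total RNA, edgeR, group only) of each tested member, in order, for 48 large subunit names (top) and 33 small subunit names (bottom). Bars are 1 standard error and rings mark the 16 members past an adjusted p of 0.01 in the fit with the replicate as a block. The members run from -0.82 (Rps12) to 0.64 (Rpl18), and the 4 ringed members above 0 are all of the large subunit.

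The members with more RNA on polyribosomes in the paired fit were Rpl18, Rpl27, Rplp2 and Rpl8. Rpl18, a protein of the large subunit (chromosome 7, 45715457 to 45720835, GRCm38), had 79.9, 75.8 and 111 CPM on polyribosomes and 60.1, 48.6 and 64.3 CPM in total RNA. Every polyribosome library was above every total RNA library. The fitted log2 fold change was 0.64 (SE 0.19, adjusted p = 0.0383) by edgeR without the block and 0.59 (SE 0.13, adjusted p = 0.000136) with it. It overlaps Sphk2 in the deposited coordinates, and the counting strand was not stated. Among the members called lower with the block, Rpl5 (Fam69a), Rpl13a (Flt3l) and Rpl23a (Tlcd1) have the same limit.

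Rpl27 had 42.9, 42.9 and 69.4 CPM on polyribosomes and 38.7, 28.5 and 34.5 CPM in total RNA. The groups did not overlap, but replicate 3 on polyribosomes stood well above the other two. The log2 fold change was 0.60 (SE 0.22, adjusted p = 0.0764, edgeR) and with the block 0.50 (adjusted p = 0.00371), and without preparation 3 the blocked value was 0.33 (adjusted p = 0.0508).

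Rplp2, an acidic protein of the stalk that recruits translation factors, had 74.7, 100.5 and 121 CPM on polyribosomes and 52.6, 80.7 and 80.6 CPM in total RNA. The groups overlapped, while each preparation was higher on polyribosomes. Its log2 fold change of 0.49 (SE 0.21) had an edgeR adjusted p of 0.131 without the block and 0.0026 with it (log2 fold change 0.46).

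Rpl8, which lies at the catalytic centre of the large subunit, had 170.3, 171 and 225 CPM on polyribosomes and 115, 138 and 159 CPM in total RNA. All 3 polyribosome libraries were higher. Its log2 fold change was 0.47 (SE 0.18, edgeR adjusted p = 0.0922) and with the block 0.46 (adjusted p = 0.00214).

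The 12 members with less RNA on polyribosomes in the paired fit were led by Rps12 of the small subunit (chromosome 10, 23785211 to 23787195, minus strand, GRCm38). Its polyribosome libraries lay close together at 65.7, 63.4 and 60.9 CPM, and its total RNA libraries held 125, 131 and 72.9 CPM. The groups did not overlap, and total RNA replicate 3 lay nearer to the polyribosome libraries than to its own group. The log2 fold change was -0.82 (SE 0.20, edgeR adjusted p = 0.0168) and with the block -0.81 (adjusted p = 1.81e-07). Leaving out any 1 library gave values between -1.01 and -0.68, and without total RNA replicate 3 Rps12 was the 1 member called lower in the group-only fit, where 0.483% of all genes were called higher and 1.56% lower.

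Rpl41, a very short and basic protein of 24 amino acids by the coding part used here, had 78.2, 78.5 and 47.1 CPM on polyribosomes and 144, 111 and 91.1 CPM in total RNA. The log2 fold change was -0.77 (SE 0.22, edgeR adjusted p = 0.0292) and with the block -0.76 (adjusted p = 6.46e-07). Rps2, near the entry of the mRNA channel of the small subunit, had 77.8, 73.1 and 65.9 CPM on polyribosomes and 122, 118 and 105 CPM in total RNA. Its differences within the preparations were -0.64, -0.69 and -0.66 on the log2 scale, the most even among the 16 members called with the block. The fitted value was -0.67 (SE 0.16, edgeR adjusted p = 0.0152) and with the block -0.67 (adjusted p = 6.58e-06).

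Rplp1, the partner of Rplp2 in the stalk, lay on the other side of 0 from it. Its levels were 180.3, 214 and 245 CPM on polyribosomes and 395, 329.9 and 283 CPM in total RNA. Within preparations 1, 2 and 3 the log2 differences were -1.13, -0.62 and -0.20, so the size varied while the sign did not. The log2 fold change was -0.66 (SE 0.18, edgeR adjusted p = 0.0287) and with the block -0.67 (SE 0.13, adjusted p = 1.18e-05). The SE with the block was nearly that of Rps2 (0.12), whose preparations were far more even. Rps12 had log2 differences of -0.92, -1.04 and -0.26 and an SE with the block of 0.13. The p-values with the block therefore do not measure how evenly the preparations changed.

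Rps20 had 52.1, 50.2 and 59.5 CPM on polyribosomes and 89.6, 77.7 and 82.5 CPM in total RNA. By the fit this was -0.63 (SE 0.16, edgeR adjusted p = 0.021) and with the block -0.65 (adjusted p = 1.86e-05). Rpl5, which carries the small ribosomal RNA of the large subunit into the ribosome, had 75.8, 60.7 and 65.7 CPM on polyribosomes and 101, 101 and 97.8 CPM in total RNA, a fitted log2 value of -0.57 (SE 0.16, edgeR adjusted p = 0.0288) and with the block -0.57 (adjusted p = 0.000119). Both groups lay apart in each of these genes.

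Rpsa had 192, 201 and 257 CPM on polyribosomes and 327, 254 and 277 CPM in total RNA, with overlap between groups. Its value with the block was -0.42 (edgeR adjusted p = 0.00562) and without it -0.40 (adjusted p = 0.133). The 5 other members called lower with the block, named after their values were seen, were Rps24 (-0.51), Rps3a1 (-0.49), Rpl23a (-0.49), Rpl30 (-0.47) and Rpl13a (-0.43 on the log2 scale). Rpl23a lies at the exit of the tunnel, and Rpl13a is also known for silencing mRNAs outside the ribosome. In each of these 5 the polyribosome libraries were all lower than the total RNA libraries.

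**Figure D2:**
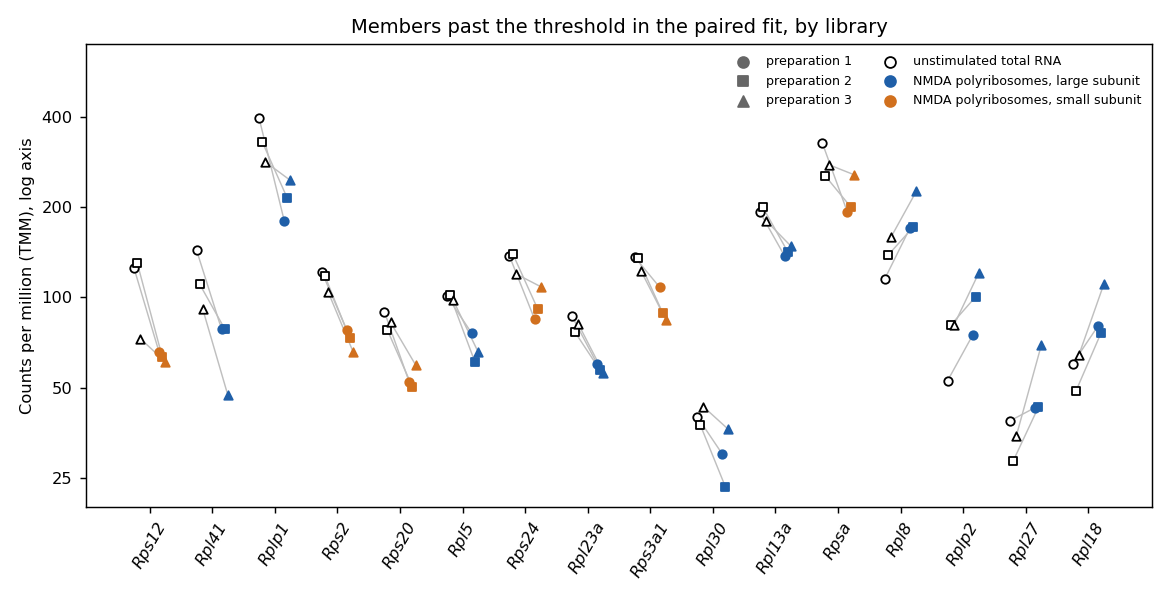
TMM-scaled CPM (log axis) of the 16 members past an adjusted p of 0.01 with the replicate as a block, in the order of their fold change. Open symbols are total RNA and filled ones NMDA polyribosomes (blue large subunit, orange small subunit), and a line joins the libraries of 1 preparation (circle 1, square 2, triangle 3). In 14 of the 16 the filled and open symbols do not overlap, and Rplp2 and Rpsa are the other two.

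The preparations differed in how members lay. In preparation 1, 22 of the 81 members were higher on polyribosomes, in preparation 2 it was 32 and in preparation 3 it was 46. The median log2 difference of the members was -0.24, -0.06 and 0.07 in preparations 1 to 3, where the median over all genes tested was 0.00, 0.01 and 0.00. Without preparation 3, a choice made after the data were seen, the fit with the block called 5 members higher and 22 lower (all genes 11.7% and 12.8%), and the group-only fit called 0 higher and 9 lower (all genes 3.61% and 5.25%). Of the 16 members called with all libraries, 15 were called there as well, all 16 with the same sign, and Rpl27 was the exception. Across the 81 members, the log2 differences of preparations 1 and 2 had a Spearman's rho of 0.78, those of 1 and 3 of 0.51 and those of 2 and 3 of 0.65. These coefficients are across genes, which are not independent replicates, and the coefficients over all 12255 genes were 0.67, 0.60 and 0.61.

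The medians of the subunits lay close to each other. The median log2 fold change was -0.04 over 48 large subunit members and -0.07 over 33 small subunit members, beside 0.00 over all genes tested. Without polyribosome replicate 3 these medians were -0.13 and -0.19. Without replicate 2 they were -0.019 and -0.027. Without replicate 1 they were -0.019 and -0.0014, so the order of the subunits was reversed there. Within preparations 1, 2 and 3 the large subunit medians were -0.20, -0.05 and 0.07 and the small subunit medians -0.26, -0.12 and -0.04. The large subunit median was thus above the small subunit one in each preparation, by 0.06, 0.08 and 0.11, a mean of 0.08 ± 0.03 (SD, n = 3). The gap had the same sign in all 3 preparations and exceeded its own SD between them, and no test of it was run. It was not kept with an offset for transcript length and GC content, described further on. There the large and small subunit medians were -0.28 and -0.27, and -0.29 and -0.28 with the block as well. Of the large subunit members, 12 were higher in all 3 preparations and 15 were lower. Of the small subunit members, 3 were higher in all 3 and 13 were lower. Over all genes tested, 30.2% were higher and 30.6% lower in all 3. Scaling by total counts alone moved the median of all genes to -0.11 and that of the members to -0.17, and it split the calls over all genes into 42 higher (0.343%) and 366 lower (2.99%) in place of 87 and 289, with no member called.

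**Figure D3:**
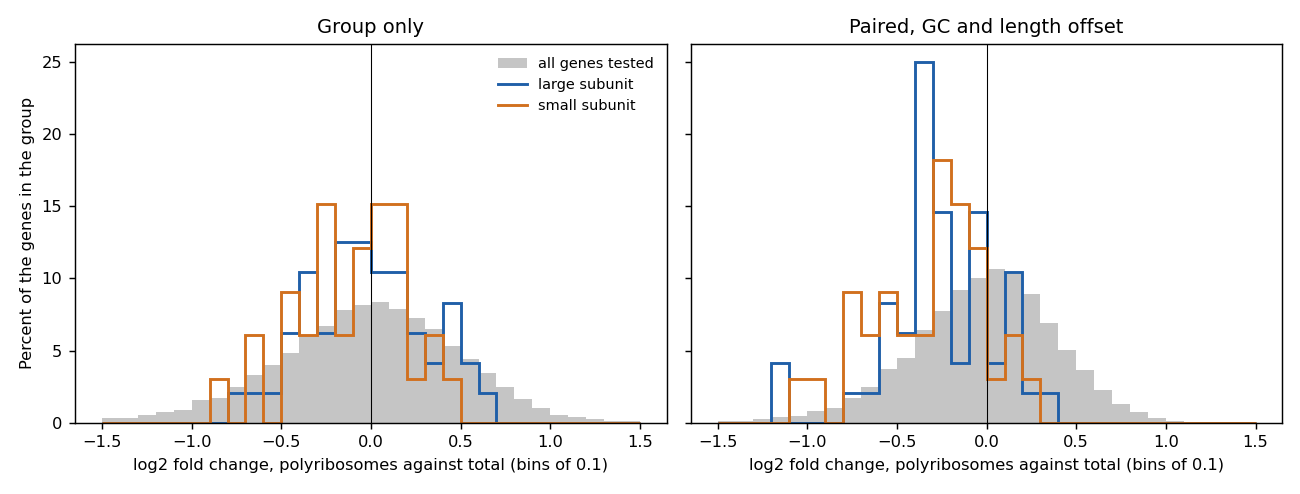
Distribution of log2 fold changes in bins of 0.1 for all genes tested (grey), large subunit members (blue) and small subunit members (orange), as a percent of each group of genes. Left, edgeR with the group only, where the medians are 0.00, -0.04 and -0.07. Right, with the replicate as a block and an offset for transcript length and GC content, where the large and small subunit medians are -0.29 and -0.28.

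The fold changes of the members were narrower than those of all genes. Their SD was 0.34 over the large subunit and 0.31 over the small subunit members, against 0.51 over all genes tested, and no member changed by over 1 on the log2 scale. The genes tested had a lower median level (22.7 CPM on polyribosomes and 23.9 in total RNA) than the members (77.2 and 83.3). The SDs of fold changes were not compared at matched counts. Levels differed between members less on polyribosomes than in total RNA. The SD of log2 CPM across the 81 members was 1.02, 1.05 and 1.08 in the polyribosome libraries and 1.13, 1.15 and 1.19 in the total RNA libraries, with no overlap. For the small subunit the values were 1.04, 1.07 and 1.12 on polyribosomes and 1.21, 1.18 and 1.29 in total RNA, and for the large subunit 1.01, 1.04 and 1.06 against 1.09, 1.14 and 1.13. Over all genes tested the corresponding SDs overlapped, at 1.96 to 2.02 on polyribosomes and 1.93 to 2.00 in total RNA.

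Between replicates, with TMM scaling, the spread of the members was of the size of that of other genes on polyribosomes and below it in total RNA. The SD of log2 CPM over 3 libraries had a median of 0.20 over the members on polyribosomes and 0.16 in total RNA. Genes tested in the same range of mean counts as the members with at least 100 counts had medians of 0.19 and 0.21. The large subunit members had a median SD of 0.21 on polyribosomes and 0.15 in total RNA, while small subunit members had 0.17 and 0.16. The SD was larger on polyribosomes in 45 of the 81 members and in 4981 of the 12255 genes, but scaling by total counts alone turned the order of the medians (0.15 on polyribosomes and 0.17 in total RNA), with 34 of the 81 members larger on polyribosomes. Scaled by total counts, genes in that range of mean counts had medians of 0.19 on polyribosomes and 0.21 in total RNA. The members were then below them in both groups. The spread on polyribosomes lay between replicate 3 and the others. Large subunit members differed by a median absolute log2 value of 0.10 between polyribosome replicates 1 and 2, but by 0.40 between 1 and 3 and 0.27 between 2 and 3. Small subunit members differed by 0.09, 0.32 and 0.19, and all genes tested by 0.17, 0.30 and 0.28. The members were higher in replicate 3, by a median of 0.32 against replicate 1 and 0.22 against replicate 2. In total RNA such medians stayed within 0.17 to 0.21 for the large subunit and 0.12 to 0.25 for the small subunit.

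**Figure D4:**
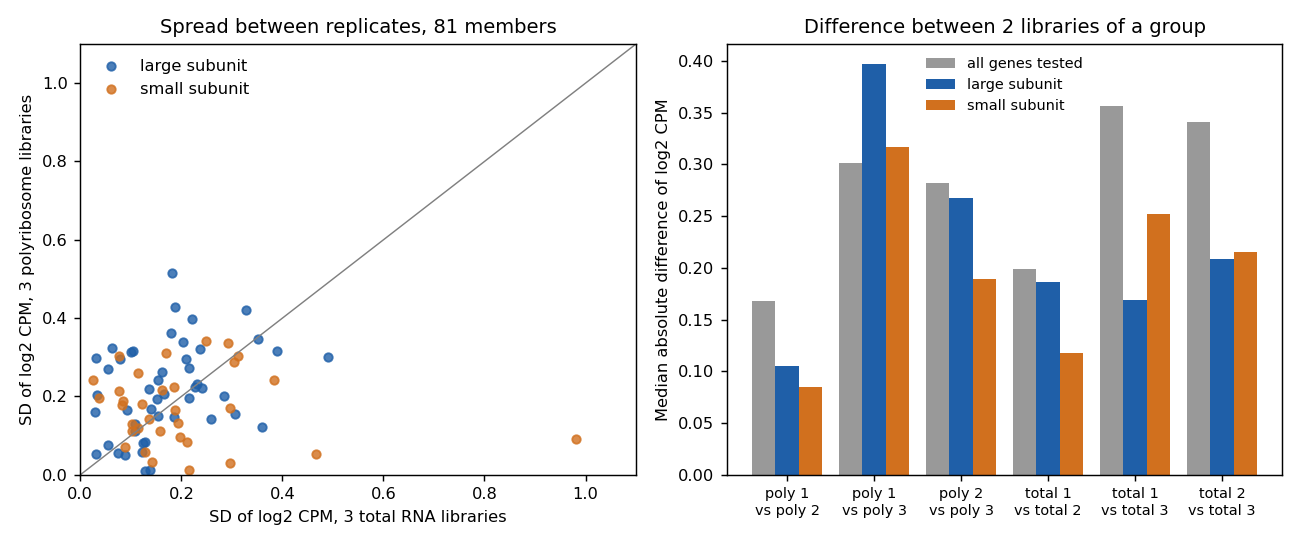
Left, SD of log2 CPM over the 3 polyribosome libraries against that over the 3 total RNA libraries for each of 81 members, with the line of equal SD. Right, median absolute log2 difference between each pair of libraries within a group (grey all genes tested, blue large, orange small subunit), where the large subunit reaches 0.40 between polyribosome replicates 1 and 3 and stays at 0.10 between replicates 1 and 2.

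The widest spread among members with at least 100 normalized counts belonged to Rpl36, Rpl38 and Rpl41 on polyribosomes and to Rpl28, Rps12 and Rpl34 in total RNA. Rpl36 had 61.3, 74.3 and 123 CPM on polyribosomes and 53.9, 63.6 and 69.0 CPM in total RNA. The log2 value of 0.48 (SE 0.23) did not pass (edgeR adjusted p = 0.167, and 0.0174 with the block). Rpl38, known for its part in translating Hox mRNAs, had 89.4, 99.0 and 157 CPM on polyribosomes and 103, 88.7 and 115 CPM in total RNA. The fitted log2 value was 0.18 (SE 0.21), and without polyribosome replicate 3 it was -0.10. Rpl28 had 75.6, 89.9 and 115 CPM on polyribosomes and 57.9, 64.0 and 109 CPM in total RNA, so that replicate 3 was the highest in both groups. Rpl34 had 23.7, 22.9 and 34.2 CPM on polyribosomes and 23.3, 17.4 and 13.4 CPM in total RNA, with a log2 fold change of 0.49 (SE 0.23, edgeR adjusted p = 0.158, and 0.0573 with the block).

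Members of one structural part did not move as one. Rpl11, which joins Rpl5 on the same small ribosomal RNA, had 84.8, 91.0 and 89.6 CPM on polyribosomes and 92.1, 89.8 and 88.2 CPM in total RNA, a fitted log2 value of -0.03 (SE 0.15), beside -0.57 for Rpl5. In the stalk, the base protein Rplp0 had 0.12 (SE 0.18) and Rpl12 had -0.17 (SE 0.17), beside -0.66 for Rplp1 and 0.49 for Rplp2. None of Rpl11, Rplp0 and Rpl12 passed with or without the block. The exit tunnel genes Rpl4, Rpl17 and Rpl39 had log2 fold changes of -0.06, -0.04 and -0.10, with SEs of 0.16, 0.16 and 0.20, and their libraries overlapped. Rpl17 was very even on polyribosomes, with 75.3, 74.7 and 75.6 CPM, against 84.4, 70.7 and 75.8 CPM in total RNA. Rps6, the small subunit protein phosphorylated in response to growth and synaptic signals, had 60.7, 65.2 and 73.9 CPM on polyribosomes and 57.1, 58.6 and 68.1 CPM in total RNA, a fitted log2 value of 0.14 (SE 0.17, edgeR adjusted p = 0.612). Rps27a, made as a fusion with ubiquitin, had -0.04 (SE 0.17). The differences between these genes were not tested against each other.

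Of the members with the highest level per kilobase, Rps15 and Rpl9 were lower in each polyribosome library than in any total RNA library. Neither passed the threshold with the group only or with the block. Both passed with the block in preparations 1 and 2 only (edgeR adjusted p = 0.0037 and 0.00051). They also passed with the block and the GC and length offset (edgeR adjusted p = 1.06e-07 and 0.00066). Rps15 had 138, 160.0 and 180.4 CPM on polyribosomes and 185, 189 and 195 CPM in total RNA, a fitted log2 value of -0.25 (SE 0.16). Rpl9 had 134, 138 and 165 CPM against 172, 186 and 196 CPM, a log2 fold change of -0.34 (SE 0.16, edgeR adjusted p = 0.165, and 0.018 with the block). Rps21 overlapped between groups, with 98.2, 102 and 144 CPM on polyribosomes and 123, 109 and 80.6 CPM in total RNA.

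Among paralogs, 4 held a larger part of the counts of their pair in every polyribosome library than in any total RNA library (Rpl36al, Rpl7l1, Rpl22l1 and Rps27l). Rpl36al, a close relative of Rpl36a, made up 29.7, 35.4 and 32.4% of the counts of both genes on polyribosomes and 24.6, 23.6 and 27.2% in total RNA. The polyribosome libraries were all higher, at 32.5 ± 2.87% against 25.1 ± 1.86% (SD, n = 3). Rpl36al itself had 20.4, 24.0 and 31.9 CPM on polyribosomes and 17.4, 15.1 and 21.1 CPM in total RNA, with a log2 fold change of 0.55 (SE 0.22, edgeR adjusted p = 0.102, and 0.0237 with the block), beside 0.00 (SE 0.19) for Rpl36a. Rpl7l1 made up 14.5, 15.1 and 16.1% beside Rpl7 on polyribosomes and 12.8, 12.7 and 12.8% in total RNA. Rpl22l1 made up 17.3, 17.0 and 21.8% beside Rpl22 on polyribosomes and 15.6, 15.0 and 16.9% in total RNA. There the groups nearly touched. Rpl22 held 61.3, 56.8 and 41.4 CPM against 68.3, 68.3 and 71.0 CPM, with no overlap, and Rpl22l1 held 12.9, 11.6 and 11.5 CPM against 12.7, 12.1 and 14.4 CPM, with overlap. Rps27l, a relative of Rps27 with 184 counts in all, made up 13.4, 13.2 and 13.1% on polyribosomes and 9.41, 11.8 and 3.28% in total RNA, with the low value in the shallowest library. Rps27 itself had a log2 fold change of -0.38 (SE 0.16, edgeR adjusted p = 0.127, and 0.0136 with the block). Rps4l stayed at or below 3.13% beside Rps4x. None of these fold changes passed 0.01 with the group only or with the block, and the shares were not tested. Rps27 passed with block and offset (-0.58, edgeR adjusted p = 0.00012). It also passed with the block in preparations 1 and 2 (-0.48, edgeR adjusted p = 0.0007).

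Transcript length and GC content moved with the fold changes. Over all genes tested, the log2 fold change had a Spearman's rho of 0.53 with GC content and -0.31 with transcript length, and the 81 members were short, with a median of 729 bases against 3024 over all genes, at a similar GC content (51.8 against 50.7%). Across the members rho with GC content was 0.29, being 0.40 over the large and 0.10 over the small subunit, and rho with coding length was 0.04. The 4 members called higher with the block had GC contents of 58.3, 52.4, 55.6 and 58.0% (Rpl18, Rpl27, Rplp2 and Rpl8), while of those called lower Rps20 and Rpl5 had 41.3 and 42.7% and Rplp1 and Rps2 had 57.3 and 56.5%. With an offset for both properties beside the block, none of the 81 members was called higher and 25 were called lower, where 8.59% of all genes were called higher and 7.82% lower. The offset without the block called 0 members higher and 5 lower (all genes 0.254% and 0.909%). With the offset, rho with GC content was 0.0007 over all genes but -0.26 across the members (large subunit -0.09, small subunit -0.47). The offset, fitted over all genes, thus turned the sign of this relation within the members, and calls with it carry that limit. The members' median with block and offset was -0.28, being -0.29 for the large and -0.28 for the small subunit. Of the 4 members called higher none kept its call, with Rpl18 at 0.11, Rpl27 at 0.25, Rplp2 at 0.07 and Rpl8 at -0.00. Of the 12 called lower 10 kept theirs, including Rpl41 (-1.15), Rplp1 (-1.13), Rps2 (-1.05) and Rps12 (-0.97), and Rps20 (-0.28, adjusted p = 0.0609) and Rpl5 (-0.34, adjusted p = 0.0199) did not by the same edgeR test. The transcripts taken for Rps20 and Rpl5 are long for ribosomal protein mRNAs, at 3706 and 2045 bases, so their offsets rest on that choice.

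Genes that host snoRNA genes lay lower than the others, a division made after the values were seen. In Gencode vM21, 30 of the 81 tested members hold a snoRNA gene on the same strand, and their median log2 fold change was -0.19 against 0.01 in the other 51. By subunit the medians were -0.13 in 20 large subunit hosts and 0.02 in 28 others, and -0.35 in 10 small subunit hosts and -0.04 in 23 others. In preparations 1 to 3 the host medians were -0.32, -0.20 and -0.03, and those of the members without a snoRNA gene -0.17, -0.02 and 0.14. Of the 12 members called lower with the block, 9 are hosts, among them Rps12 with 3 snoRNA genes and Rpl13a with 4, and of the 4 called higher 1 is, Rplp2. With the block and the GC and length offset the medians were -0.33 and -0.24. The pyrimidine runs of the start windows showed the opposite arrangement, with a median log2 fold change of 0.07 in 21 tested members with a run of at least 8 and -0.11 in 40 without. In the windows at hand 2 of 3 members called higher and 3 of 8 called lower had such a run. Whether the counts of host genes include intron or snoRNA reads was not tested.

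**Figure D5:**
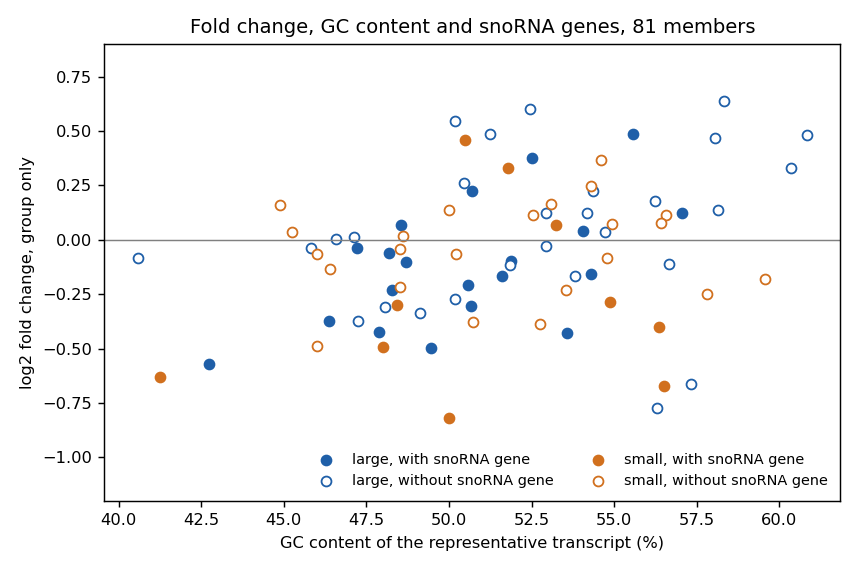
Log2 fold change (edgeR, group only) of 81 members against the GC content of the representative Gencode vM21 transcript in percent, for large (blue) and small (orange) subunit names, filled where the gene holds a snoRNA gene. Filled points have a median of -0.19 and open ones of 0.01, and Spearman's rho with GC content is 0.29 across all points.

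Values of other genes of the translation machinery stood beside those of the members, with no test of a difference. Fau, a ribosomal protein made as a fusion with a ubiquitin-like protein, had a log2 fold change of 0.41 (SE 0.26, edgeR adjusted p = 0.304, and 0.019 with the block). Of 18 other mRNAs known for a TOP start, 9 were positive and 9 negative with a median of 0.02, none passed without the block, and with it 1 was higher (Btf3, 0.51) and 3 were lower (Eif3e, -0.54, Pabpc1, -0.41, and Nap1l1, -0.40), or 5.56% and 16.7% beside 11.8% and 13.2% of all genes. For these mRNAs the shares called lay near those of the members, but they rest on 18 genes. Their medians within the preparations were -0.04, -0.03 and 0.13, above the -0.24, -0.06 and 0.07 of the members in each. Btf3 belongs to the complex that binds nascent chains, Pabpc1 binds poly(A) tails and Eif3e is an initiation factor subunit. The 75 tested mitochondrial ribosomal protein genes, which build the separate ribosome of mitochondria, had a median of 0.20, with 55 positive. None passed without the block. With it 6 were higher and 1 lower, or 8.00% and 1.33%, both below the 11.8% and 13.2% of all genes. Their medians within the preparations were 0.15, 0.14 and 0.35, above those of the cytosolic members in each.

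Markers of glia moved with the group. Over all genes tested, 30.2% were higher in each preparation. The group-only fit called 0.710% of all genes higher and 2.36% lower, and the fit with the block 11.8% and 13.2%. All 11 astrocyte markers were higher on polyribosomes in each preparation (median log2 fold change 0.63, summed level 45203 to 49732 CPM on polyribosomes and 34722 to 40646 CPM in total RNA, none called in the group-only fit and 8 with the block). Of 10 oligodendrocyte markers 9 were higher in each preparation (median 0.52, summed level 11244 to 15093 CPM against 8075 to 11212 CPM, 1 and 6 called), and of 10 microglia markers 8 were (median 0.40, summed level 956 to 1111 CPM against 628 to 863 CPM, 0 and 4 called). The 8 endothelial markers had a median of 0.23 (summed level 347 to 606 CPM against 371 to 386 CPM, 0 and 1 called). The 10 neuron and synapse markers, which mark the labelled material, were all counted, with a median of 0.01 (summed level 9520 to 11926 CPM against 9127 to 10824 CPM, 0 and 3 called), and no marker of any list was at 0 in all libraries. Both libraries of a preparation came from aliquots of the same material, and stimulation, handling (ice and cycloheximide or warm incubation) and RNA fraction changed together between them. Which of these moved the markers cannot be told apart. The part of these markers in the members' values was not tested.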

How the data were processed

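The authors prepared ribo-depleted RNA libraries and, per the labels and methods, mapped the reads with STAR 2.5.2b to GRCm38 (mm10). They deposited raw, whole-number counts (Gencode vM6 basic) for 21958 protein-coding genes in 6 libraries, 3 NMDA polyribosomes and 3 unstimulated total. Use of the strand in counting: not given in the sources used here. The deposited table also holds the authors' DESeq2 comparison (fold change, statistic and p-values), which was not used.

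From the counts, edgeR 4.0.16 (R 4.3.3) was run with TMM scaling, filterByExpr (12255 genes kept, 81 of 87 members) and the quasi-likelihood test, fitted on group alone, with Benjamini-Hochberg adjustment over all genes tested and the study's threshold of 0.01. Log2 CPM used a prior count of 2. The test was checked on simulated counts. Alternatives were DESeq2 1.42.0, other scalings, other filters, the replicate as a block, an offset for transcript length and GC content (splines with 5 degrees of freedom), leaving out each library and, added after the data were seen, preparations 1 and 2 only. Replicates differed by more than sampling noise (chi-square per degree of freedom of 3.58 to 21.5). Replicates are 3 preparations.

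The methods divide each preparation into aliquots, libraries of 1 replicate number share a label in the table, and across genes the same-numbered libraries deviated together from their group's mean (r = 0.37, 0.26 and 0.38, against -0.35 to 0.11 for other combinations). The numbers therefore pair the samples. Lengths, GC content, snoRNA genes and pseudogenes came from Gencode vM21 (GRCm38), using the principal coding transcript, and start windows from RefSeq. Protein sequences were not used here. Members and lists were chosen with earlier results of these data known.

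Named members were the 6 at each end of the fold changes (mean normalized count 100 or more), those past the threshold (up to 5 per direction with the block), the 5 with most counts per kb, the 3 with the largest SD in each group, and the structural parts and paralogs given. Intervals and limits of a count of 0 cover counting error only.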

Additional observations from a re-analysis of the deposited data

How the results depend on the processing

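With 3 preparations, the group-only edgeR fit called no ribosomal protein member, and the count of calls depended on the fit. Members called higher numbered 4 with the replicate block (all of the large subunit, beside 11.8% of all genes), 2 with DESeq2 and the block (both large, beside 6.91%), and 5 with the block in preparations 1 and 2 only (4 large and 1 small, beside 11.7%). Members called lower numbered 2 with every gene of at least 1 count (1 large, 1 small, beside 3.38% of all genes), 3 with DESeq2 (1 and 2, beside 3.83%), 12 with the block (6 and 6, beside 13.2%), 6 with DESeq2 and the block (3 and 3, beside 5.97%), 5 with the GC and length offset (2 and 3, beside 0.909%), 25 with block and offset (13 and 12, beside 7.82%), 9 in preparations 1 and 2 (4 and 5, beside 5.25%) and 22 there with the block (11 and 11, beside 12.8%). Leaving out 1 library each gave 0 to 1 members lower, and 0 to 1 of the small subunit. The median log2 fold change was -0.27 over the members, -0.28 over the large and -0.27 over the small subunit with the offset, and -0.28, -0.29 and -0.28 with offset and block. The large subunit median was -0.085 in preparations 1 and 2, -0.087 there with the block, and -0.13 to -0.019 with 1 library left out (lowest without polyribosome replicate 3). The small subunit median was -0.21 in preparations 1 and 2, -0.20 there with the block, and -0.19 to -0.0014 with 1 library left out (lowest without polyribosome replicate 3). Without mitochondrially encoded genes and the 10 genes with most counts, members held 0.763% of counts on polyribosomes and 0.893% in total RNA, large subunit genes 0.472% and 0.538%, and small subunit genes 0.291% and 0.355%.

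Some named members that passed no threshold in the group-only fit changed sign. With the offset, and with offset and block, the log2 values were -0.15 and -0.21 for Rpl36, -0.0012 and -0.0024 for Rpl8, -0.27 and -0.30 for Rpl38, -0.18 and -0.21 for Rps21, -0.22 and -0.22 for Rpl28, -0.11 and -0.11 for Rplp0, -0.0087 and -0.016 for Rps6, 0.11 and 0.11 for Rpl22l1, and -0.031 and -0.086 for Rpl36a. In preparations 1 and 2, without and with the block, they were -0.037 and -0.039 for Rpl38, -0.22 and -0.22 for Rps21, -0.055 and -0.052 for Rplp0, -0.087 and -0.088 for Rps27l, and -0.16 and -0.16 for Rpl36a. Rps21 was at -0.0030 with total counts, and Rpl36a at -0.0081 with upper quartile scaling, -0.11 with total counts, -0.051 with the block and -0.023 with DESeq2 and the block. With 1 library left out, the values ran from -0.046 to 0.00043 for Rpl11, -0.10 to 0.035 for Rpl17, -0.18 to 0.13 for Rpl36a, -0.10 to 0.33 for Rpl38, -0.31 to 0.0018 for Rpl39, -0.083 to 0.24 for Rps21, -0.19 to 0.059 for Rps27a and -0.029 to 0.38 for Rps27l. The causes were not tested. Of the other comparisons of alternatives, 524 for named members and 136 for counts, medians and shares kept direction and side of the threshold or stayed within the replicate spread. Another 60 for named members came out stronger in the alternative fit. Some named members called neither with the group only nor with the block passed 0.01 elsewhere. Rps15 and Rpl9 did with block and offset, and Rpl28 with the block in preparations 1 and 2 (0.43, edgeR adjusted p = 0.0012). Total RNA replicate 3 was the shallowest library and limits the low members most.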
